A study of Homo sapiens with 9 samples.

Results

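The comparison described here set HEK293 cells after XRN1 depletion against the same cells given a control siRNA. It used 2 of the 9 samples of the series, 1 poly(A)+ RNA-seq library for each condition. HEK293 is an established human embryonic kidney line. All libraries came from its b-39 subline, built on Flp-In T-Rex cells, in which a β-globin reporter with a premature termination codon (PTC39) is expressed from the Flp-In locus. Control cells therefore carried the reporter too, and had been given an siRNA against EGFP, while the other library is labelled XRN1 depletion. RNA was taken from the digitonin extract, that is from cytoplasm, so nuclear RNA is sampled only as far as it leaked. SMG6/XRN1 and UPF1/XRN1 co-depletions, 1 RNA-seq library each, share the control and are given beside single genes for their level only. The 4 libraries of RNA 5′ ends and a CAGE library were not analysed here.

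Loci were kept where the mean over the 4 RNA-seq libraries reached 1 FPKM, fragments scaled to transcript length and library depth, which left 12164 of the 22266 loci of the gene table. The table lists no locus at 0 in either co-depletion, against 1336 in the control and 1294 in the XRN1-labelled library, so it holds loci seen in both co-depletions. Change is given as log2((XRN1 + 1)/(control + 1)) of FPKM, and a locus is called higher or lower at 2-fold on that scale. The smallest change called higher was 1.001 and the largest change below that limit was 0.999. On the same scale, a locus under 1 FPKM in the control can be called higher but not lower. Such a locus can still pass the filter through the other libraries. With 1 library in each condition there is no replicate error and no test, so every difference below compares these 2 libraries, and cannot be told apart from a difference between 2 preparations. Read ratios carry 95% intervals that cover counting error only. The depth estimated from the isoform table was 31476528 reads in the control library and 32970743 in the XRN1-labelled library.

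In the cytoplasm, RNAs that have lost their cap, or have been cut internally, are consumed from the 5′ end mainly by the exonuclease XRN1. In nonsense-mediated decay (NMD), a quality-control route that removes RNAs whose translation ends too early, the endonuclease SMG6 cuts near the stop codon and XRN1 then degrades the downstream piece. The helicase UPF1 is needed for the choice of target. A poly(A)+ library holds intact mRNAs and any downstream pieces that keep the tail, and cannot tell the one from the other.

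XRN1 itself differed little between the libraries. Its level was 7.80 FPKM in control cells, 7.31 in the XRN1-labelled library, 10.1 in SMG6/XRN1 and 6.5 in UPF1/XRN1. The read ratio of the locus was 0.894 (0.834 to 0.958), so the total level of the targeted gene does not by itself set the labelled libraries apart. Its most abundant isoform in the control, which matches a reference transcript, had 957 reads there against 308 in the XRN1-labelled library, 402 in SMG6/XRN1 and 465 in UPF1/XRN1. A second XRN1 isoform with a splice junction outside the reference had 485 reads in the control and 558 in the XRN1-labelled library, and another had 60.3 and 169. These splits rest on the assembler's division of shared reads. The direction of every difference below therefore rests on the label, and the library is called XRN1-labelled throughout.

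HBB, whose locus can take reads of the β-globin reporter, measured 139 FPKM in control cells, 257 in the XRN1-labelled library, 355 in SMG6/XRN1 and 747 in UPF1/XRN1. The read ratio between the first pair was 1.67 (1.57 to 1.77). SMG6 was at 4.77 and 5.55 FPKM, and UPF1 at 6.71 and 11.6, in control and XRN1-labelled cells.

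The cells looked like HEK293 on marker genes. VIM (360 and 368 FPKM), KRT8 (232 and 205), EPCAM (120 and 126), NEFL (56.5 and 57.3) and LIN28B (27.6 and 25.9) were at similar levels in control and XRN1-labelled cells, while NEFM was under 1 FPKM in both. INA was at 20.49 and 13.5 FPKM. Of 16 markers of blood, endothelial, fibroblast, liver, glial, muscle and kidney epithelial cells, 13 were in the table. The 11 other than α-globin were all under 1 FPKM in both libraries, summing to 0.941 and 1.34. HBA1 (6.21 and 5.21 FPKM) and HBA2 (2.47 and 1.75) were the exceptions.

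Far more loci were higher than lower in XRN1-labelled cells. Among the 12164 loci, 500 (4.11%) passed 2-fold upward and 45 (0.37%) passed it downward. At 4-fold the counts were 55 and 8. The median change was 0.14, with quartiles at -0.06 and 0.39, and 68.2% of loci lay above 0. The summed isoform signal, which the authors scaled by a spike-in, was 1.10 times that of the control. Centred on the median locus, 362 were higher and 65 lower. The higher loci had a median of 1.95 FPKM and 168 reads in the control and 7.37 FPKM and 604 reads in XRN1-labelled cells. Of the 500, 457 had at least 50 reads in the deeper library and 453 were also 2-fold higher on summed isoform signal. The lower calls were thinner: 24 of 45 had 50 reads, and 18 were under 20 reads in both libraries.

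**Figure D1:**
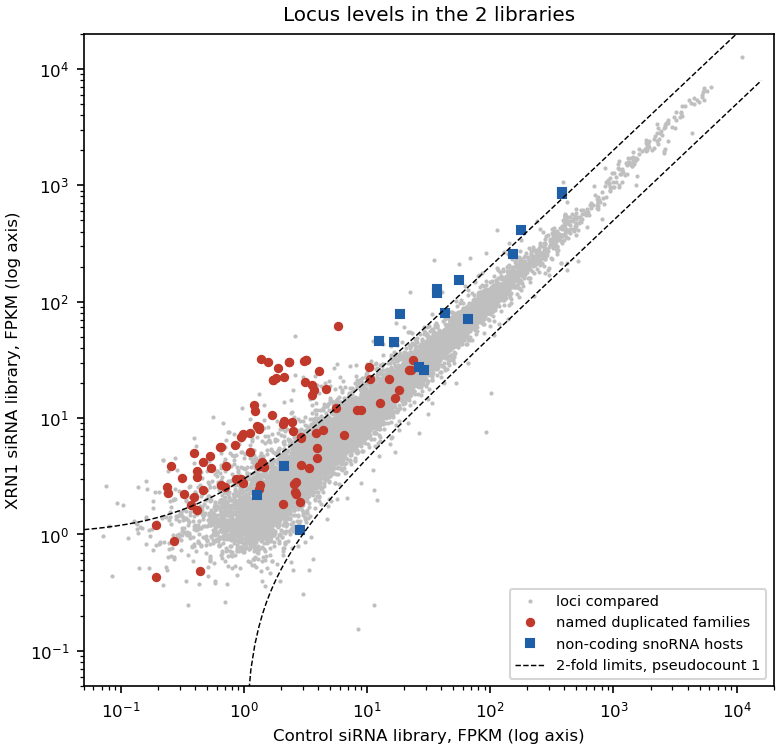
FPKM of each compared locus in the control library (x axis) and the XRN1-labelled library (y axis), both on log axes; loci listed at 0 in either library are not drawn. Grey points are loci, red points the loci of the named duplicated families, blue squares non-coding snoRNA hosts, and dashed lines the 2-fold limits; 500 loci lie above the upper line and 45 below the lower one, counting those not drawn.

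Duplicated gene copies stood out among the annotation classes. Of 48 loci typed as unprocessed pseudogenes (copies made by duplication of the genomic DNA, introns included), 16 (33.3%) were at least 2-fold higher. Of 147 transcribed unprocessed pseudogenes, 36 (24.5%) were higher, with a median change of 0.47. None of either class was lower, but members under 1 FPKM in the control could be called higher and not lower. Processed pseudogenes, which arise by copying an mRNA back into the genome, had 9 of 124 (7.26%) higher and 1 lower. Protein-coding loci had 316 of 10326 (3.06%) higher and 19 (0.184%) lower, lincRNAs 10 of 204 (4.90%) higher, and antisense loci 25 of 543 (4.6%) higher and 4 lower. The type processed_transcript, which holds many snoRNA hosts, had 11 of 75 (14.7%) higher. Among 20 snRNA loci, 4 were lower, but the class had a median of 6 reads in the control.

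**Figure D2:**
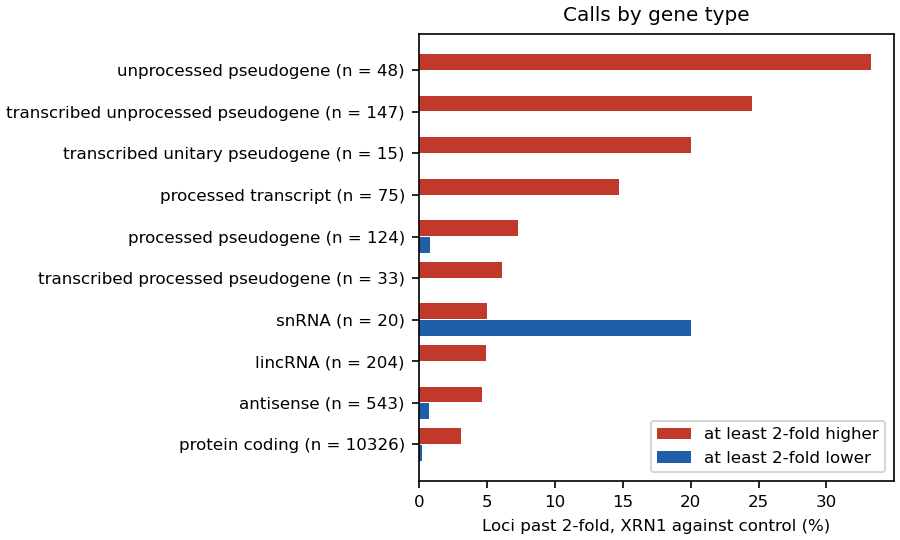
Percentage of loci at least 2-fold higher (red) or lower (blue) in the XRN1-labelled library than in the control, by GENCODE gene type, for types with at least 15 loci. Unprocessed pseudogenes reach 33.3% higher and protein-coding loci 3.06%.

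Many of the higher copies belonged to a few families. The 15 duplicated families named here, chosen after their values were seen, held 90 loci, of which 56 were higher, or 11.2% of the 500. Because reads from near-identical copies can be split among them, family sums are given beside single loci. NPIP, the nuclear pore complex-interacting protein family of chromosome 16, counted here with 3 loci filed under PKD1P1, had 11 of 13 loci higher. Its summed level was 21.4 FPKM in the control, 253 in XRN1-labelled cells, 325 in SMG6/XRN1 and 306 in UPF1/XRN1. The control was thus far below each of the other libraries, which lay close together. NPIPL3 (now NPIPB3) gave the highest single level, 5.78 FPKM in control cells and 61.5 in XRN1-labelled cells. NBPF, the neuroblastoma breakpoint family, had 11 of 13 higher and summed to 32.1, 131, 156 and 147 FPKM in the same order. NBPF14 went from 1.21 to 12.9 FPKM and NBPF9 from 3.11 to 20.2. Golgin copies GOLGA6 and GOLGA8 had 10 of 11 higher and summed to 17.9 and 48.9 FPKM in control and XRN1-labelled cells. LRRC37 had 3 of 7 higher, with LRRC37B at 4.04 and 25.4 FPKM. Smaller families of pseudogene copies followed with mixed counts. GUSBP had 3 of 5 loci higher and a sum of 7.37 and 29.2 FPKM, AGAP copies 3 of 3 (3.51 and 19.3), HERC2P 2 of 3 (2.25 and 13.2) and SDHAP 2 of 4 (11.8 and 33.0). PMS2P had 3 of 6 (37.4 and 66.3) and TBC1D3 2 of 6 (30.3 and 48.8). Their sums were higher again in both co-depletions, for example 95.2 and 101 FPKM for TBC1D3. By contrast, ANKRD36 had 0 of 5 and GTF2IP with GTF2IRD2 0 of 5 higher, the latter with a median change of -0.05. Outside these 15 families, 13 of 43 unprocessed pseudogenes (30.2%) and 25 of 126 transcribed unprocessed pseudogenes (19.8%) were still higher, against 288 of 10282 protein-coding loci (2.80%).

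SMG1P, the copies of the NMD kinase gene SMG1, had 5 of 5 loci higher and summed to 14.1 FPKM in the control, 95.8 in XRN1-labelled cells, 141 in SMG6/XRN1 and 152 in UPF1/XRN1. SMG1P1 was at 2.11 FPKM in control cells and 22.5 in XRN1-labelled cells, with 485 and 3870 reads. Its parent SMG1 was at 5.40 and 13.8 FPKM. The stretches below are the first 90 aligned bases of the copy and the matching bases of the parent (GENCODE, GRCh38, transcript sense; SMG1 spans chr16:18804853-18926454 on the minus strand and SMG1P1 chr16:22437008-22492220 on the plus strand), shown because copies this alike limit how reads can be told apart. Capitals mark the 7 bases that differ.
SMG1: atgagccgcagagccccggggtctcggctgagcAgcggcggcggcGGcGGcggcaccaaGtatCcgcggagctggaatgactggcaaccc
SMG1P1: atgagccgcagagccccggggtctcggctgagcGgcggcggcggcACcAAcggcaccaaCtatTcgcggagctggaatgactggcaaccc

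SDHAP1 copies SDHA, which encodes the flavoprotein subunit of mitochondrial complex II. The pseudogene was at 1.13 FPKM in control cells and 7.37 in XRN1-labelled cells, and the parent at 74.1 and 97.8. Here 2 of 90 bases differ in the stretch shown (SDHA spans chr5:218241-256700, plus strand, and SDHAP1 chr3:195959748-195990318, minus strand, GRCh38), again in capitals.
SDHA: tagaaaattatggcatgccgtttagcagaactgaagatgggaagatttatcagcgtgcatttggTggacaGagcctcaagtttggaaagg
SDHAP1: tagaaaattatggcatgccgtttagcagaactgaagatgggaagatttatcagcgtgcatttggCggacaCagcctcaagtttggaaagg

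In most unprocessed pairs the change of the copy, sign included, lay above that of its parent. Pairing each pseudogene with the gene its symbol names gave 83 unprocessed pairs over 55 parents. The pseudogene was ahead in 52 pairs, 27 pseudogenes and 7 parents were at least 2-fold higher, and the median change was 0.63 for pseudogenes and 0.17 for parents, each parent counted once. Of 97 processed pairs, 43 had the pseudogene ahead, 3 pseudogenes were higher, and the medians were 0.12 and 0.14. GOLGA2P5, filed as GOLGA2B (0.74 and 7.60 FPKM in control and XRN1-labelled cells) stood beside a level GOLGA2 (14.9 and 13.1), and HERC2P9 (0.95 and 6.83) beside HERC2 (5.55 and 7.28). Both pseudogenes, like some others of the 27, were under 1 FPKM in the control. They passed the level filter through the other libraries and could not be called lower. SEPT7P2 (8.18 and 22.9) stood beside SEPTIN7 (103 and 91.9). The exceptions include GUSB, a lysosomal β-glucuronidase, which was itself higher (5.70 and 29.1), with GUSBP13 alongside (1.69 and 10.7). Over the 27 higher copies, identity to the parent over the best aligned stretch was 79.9% to 99.97%, with a median of 95.7%. That stretch could be the whole copy (NAIPP2, 3544 of 3544 bases) or a small part (GUSBP18, 138 of 5001). These values therefore do not give identity over whole copies.

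**Figure D3:**
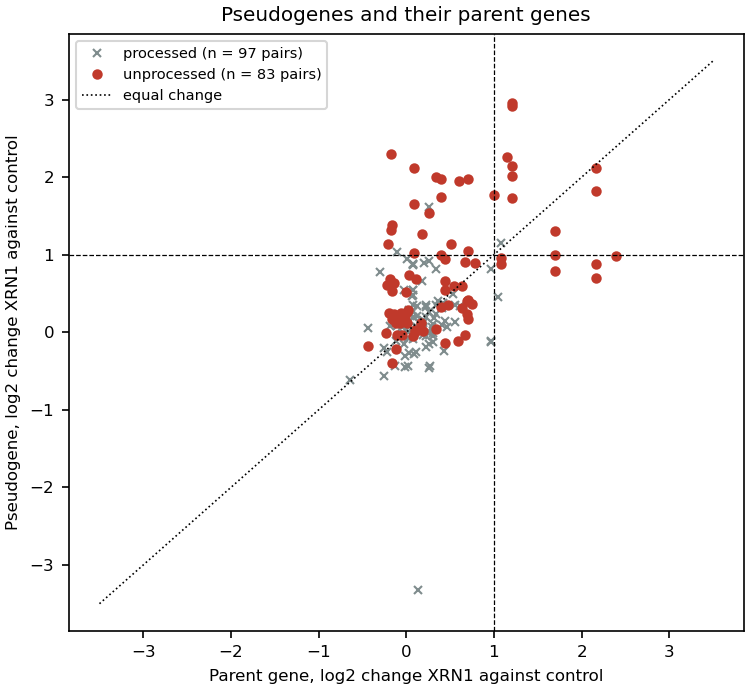
Change of each parent gene (x axis) against the change of its pseudogene (y axis), both as log2 of XRN1-labelled over control FPKM with 1 added. Red circles are 83 unprocessed pairs and grey crosses 97 processed pairs, the dotted line marks equal change and dashed lines 2-fold; 52 red circles and 43 grey crosses lie above the dotted line.

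Among single loci with at least 50 reads and a mean of 5 FPKM, the 20 largest differences upward again held copies. CROCCP2, a pseudogene of the ciliary rootlet gene CROCC, was at 1.32 FPKM in the control, 15.9 in XRN1-labelled cells, 19.6 in SMG6/XRN1 and 27.4 in UPF1/XRN1. The read ratio in XRN1-labelled cells was 12.3 (10.3 to 14.7). LRP5L, a partial copy of LRP5, went from 0.392 to 6.74 FPKM, and was at 7.35 and 8.78 in the co-depletions. ACTN2, the α-actinin of muscle, went from 1.12 to 9.79 FPKM, with a read ratio of 6.38 (5.39 to 7.59). ZNF692, a zinc finger gene, went from 0.835 to 7.36 FPKM. In these loci the control was the low library of the 4.

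Some of the large rises did not extend to the co-depletions. FAM72C was at 1.83 FPKM in the control, 22.2 in XRN1-labelled cells, 2.44 in SMG6/XRN1 and 2.50 in UPF1/XRN1. The other 3 FAM72 loci, near-identical copies, were between -0.18 and 0.22, and the family sum went from 63.6 to 88.9 FPKM. AC004448.5, a lincRNA, was at 34.6, 230, 31.2 and 23.0 FPKM in the same order. RP11-3P17.3 was high in XRN1-labelled cells and UPF1/XRN1 alone, at 2.59, 50.4, 2.21 and 35.

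Protein-coding genes outside those families gave 175 loci past the same limits, of which a few are named here after their values were seen. BRD2, a bromodomain reader of acetylated histones, was at 113 FPKM in control cells and 411 in XRN1-labelled cells, and at 384 and 352 in SMG6/XRN1 and UPF1/XRN1. TSC22D3, the glucocorticoid-induced leucine zipper, was at 56.1, 209, 115 and 126, so that the XRN1-labelled library was the highest. TXNDC11 (3.91 and 19.2), EMC9 (11.2 and 45.6), UGGT1 (3.49 and 15.8) and PILRB (3.04 and 22.5) were also higher in XRN1-labelled cells. TXNDC11 and UGGT1 act in folding of proteins in the endoplasmic reticulum, where EMC9 is part of a membrane insertion complex.

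Share of higher calls went with exon number among protein-coding genes. None of 166 single-exon genes was higher and 4 were lower, with a median change of -0.13. Among these 4, SOX2 had 580 and 491 reads, a read ratio of 0.889, so its reads did not show the change. Genes of 2 to 5 exons had 1.5% higher, 6 to 10 exons 1.97%, 11 to 20 exons 3.15% and over 20 exons 4.86%, and the medians ran from 0.08 to 0.21. Quartiles of transcript length gave 2.03% to 2.85%. Read depth also differed along these bins, from a median of 475 control reads for single-exon genes to 1274 for over 20 exons, and its part in the result was not tested. By level, higher calls made up 1.26% to 5.79% of loci.

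Non-coding snoRNA hosts were the list with the highest median. Their introns give rise to small nucleolar RNAs, and the spliced exons left over reach the cytoplasm, often with short reading frames. Of 17 measured hosts, 9 were higher (4.11% over all loci), 0 lower, and the median change was 1.14, against 0.14 over all loci. SNHG17, filed as RP4-564F22.2, was at 18.4 FPKM in the control, 78.1 in XRN1-labelled cells, 98.6 in SMG6/XRN1 and 163 in UPF1/XRN1. SNHG12 was at 37.2, 129, 445 and 479 FPKM in the same order, and SNHG7 at 37.0, 119, 204 and 252. In all of these the control was lowest and XRN1-labelled cells next. SNHG5 was at 379 and 835 FPKM in control and XRN1-labelled cells, with a change of 1.14. SNHG16 (65.5 and 70.3) and DANCR (26.6 and 27.3) were level, and SNHG10 was at 2.86 and 1.08, on 79 and 27 reads.

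Promoter sequence was looked at because hosts and ribosomal protein genes are known for a run of pyrimidines at the start site. The bases from 40 before to 15 after the start (RefSeq, GRCh38.p14) are shown for 4 higher hosts and 2 that were not, with the longest run of C or T in capitals, counted only within 10 bases of the start.
SNHG12: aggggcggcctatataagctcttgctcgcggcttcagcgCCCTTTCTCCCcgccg
SNHG7: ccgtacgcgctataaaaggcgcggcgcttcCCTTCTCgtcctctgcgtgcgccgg
GAS5: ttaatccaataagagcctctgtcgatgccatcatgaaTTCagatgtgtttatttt
EPB41L4A-AS1: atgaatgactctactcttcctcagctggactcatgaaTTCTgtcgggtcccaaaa
DANCR: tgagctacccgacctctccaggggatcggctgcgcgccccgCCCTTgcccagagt
SNHG10: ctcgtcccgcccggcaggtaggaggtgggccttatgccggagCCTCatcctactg
They lie, in this order, at chr1:28581859-28581913, chr9:136728170-136728224, chr1:173869031-173869085, chr5:112160486-112160540, chr4:52712354-52712408 and chr14:95534858-95534912, all on the minus strand but EPB41L4A-AS1 and DANCR. Within those 10 bases the run was 11 bases in SNHG12 and 7 in SNHG7. In both, C or T bases continue past that limit, so the full run is longer. The limit also puts SNHG7 under 8 in the count below. The run was 3 in GAS5 (change 1.22) and 4 in EPB41L4A-AS1 (1.40), against 5 in DANCR and 4 in SNHG10, which were not higher. Whether these RefSeq starts are the ones used in these cells was not tested. A run of at least 8 C or T inside those 10 bases on either side, read on the transcribed strand, was present at 9.10% of all RefSeq starts, 9.96% of compared loci, 8.24% of higher loci and 1 of 14 hosts with a sequence. Ribosomal protein genes had it in 72.6%. Median changes lay between 0.13 and 0.16 in all bins of run length.

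Protein-coding snoRNA hosts, a list added after the files were seen, had 4 of 50 higher, against 3.06% of protein-coding loci, and 0 lower. They were NOP56 (391 and 1058 FPKM in control and XRN1-labelled cells), a core protein of box C/D snoRNPs, PRPF39 (15.6 and 41.6), TAF1D (62.4 and 136) and SNX5 (79.7 and 167). This list had a median of 0.26. Cytosolic ribosomal proteins gave 78 measured genes, 18 of them in the host list as well; 0 were past 2-fold, and 76 lay above 0 with a median of 0.26, or 0.12 once centred on the median locus. RPSA was at 2258 and 3323 FPKM and RPL23, the lowest, at 2577 and 1984.

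NMD factors were mostly above the median locus. All 11 measured lay above 0, 2 were higher (4.11% over all loci), and the median change was 0.70. DHX34, a helicase that assists UPF1, was at 1.20 FPKM in the control, 4.84 in XRN1-labelled cells, 5.74 in SMG6/XRN1 and 6.23 in UPF1/XRN1. SMG1 was the other call. SMG9 (14.7 and 29.9) and SMG5 (7.27 and 14.2) came close to 2-fold. UPF3A was level (45.7 and 47.2).

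Known NMD targets share 3 genes with the factors and 2 with the non-coding hosts. They had 7 of 30 higher (4.11% over all loci), 0 lower and all above 0, with a median of 0.54. MAP3K14, a kinase of the non-canonical NF-κB route, was at 0.653 and 2.96 FPKM, and TBL2 at 5.74 and 14.6. ANTXR1 (2.71 and 2.86) and ARHGEF18 (2.54 and 2.66) were level. ATF4 targets, genes of the amino acid stress response, had 5 of 31 higher (4.11% over all loci), 0 lower and a median of 0.60. On summed isoform signal 9 were higher, against 996 of all 12164 loci. ASNS, asparagine synthetase, was at 143 FPKM in the control, 319 in XRN1-labelled cells, 290 in SMG6/XRN1 and 282 in UPF1/XRN1. STC2 was at 4.10 and 16.5 FPKM, CHAC1 at 0.879 and 3.78, and NUPR1 at 1.21 and 4.32. ATF5 went the other way, at 5.19 and 3.29. Aminoacyl-tRNA synthetases had 0 of 22 past 2-fold and a median of 0.27.

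General decay genes held no call and moved both ways. Of 27 decapping and 5′-to-3′ decay genes, 0 were past 2-fold (over all loci 4.11% were higher and 0.37% lower), with a median of 0.05, and -0.09 centred on the median locus. DXO, filed as DOM3Z, an enzyme that removes faulty caps, was at 8.64 and 13.7 FPKM, and DDX6, a decapping helicase, at 27.3 and 20.6. Deadenylation had a median of 0.15 and exosome with SKI 0.18, both with 0 past 2-fold. BTG2, which recruits deadenylases, was at 15.6 and 27.7 FPKM and TNRC6B, a microRNA effector, at 3.19 and 2.08. Exosome subunit EXOSC5 was at 20.51 and 33.9. Exon junction complex genes had a median of -0.02.

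Other lists were mixed. Lysosomal enzymes had 3 of 25 higher, GUSB, FUCA1 (7.16 and 16.6) and MANBA (3.74 and 9.13), and a median of 0.33, with 6 higher on summed isoform signal. Over all loci 4.11% were higher on FPKM, and 996 of 12164 on summed isoform signal. Splicing regulators had 2 of 43 higher, CLK4 (8.71 and 21.3) and SRSF6 (85.5 and 177), a share near the 4.11% over all loci, and a median of 0.04. HNRNPM was at 276 and 177. PVT1, a long RNA of the MYC region, was higher (6.05 and 22.6). Proteasome subunits had 25 of 35 below 0, a median of -0.08 and 0 past 2-fold. Heat shock proteins had 17 of 24 below 0, also with a median of -0.08. HSPA8, the constitutive HSP70, was at 805 FPKM in control cells and 509 in XRN1-labelled cells, and its co-chaperone DNAJA1 at 140 and 70.7, a change of -0.98. Interferon and RNA-sensing genes had 0 of 25 past 2-fold and a median of 0.20. On summed isoform signal 2 were higher, MX1 and IFI27, a share near that over all loci (996 of 12164). MX1, an antiviral GTPase, was at 0.300 and 1.46 FPKM, where the added 1 FPKM shrinks the change to 0.92, and its read ratio was 4.99 (3.39 to 7.55). Among p53 targets, 1 of 26 was lower, ZMAT3 (5.09 and 1.93), against 0.37% of all loci.

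The remaining lists had few calls. Over all loci 4.11% were higher, so 1 or 2 higher members in a list of this size lie near that share. Cytokine and NF-κB genes had 1 of 18 higher, TNFRSF12A (5.32 and 13.3 FPKM), 2 lower (IL8 and IL32, against 0.37% of all loci) and a median of -0.09. On summed isoform signal 5 were lower, with CXCL1, CXCL2 and CXCL3, against 103 of all 12164 loci. Translation factors had 1 of 41 higher, EIF4EBP1 (130 and 267), which restrains cap-dependent translation, and a median of 0.10. Ribosome biogenesis had 2 of 36 higher, NOP56 and TAF1D, both already counted as protein-coding snoRNA hosts, and a median of 0.16. Tubulins with their regulators had 1 of 15 higher, TUBG2 (6.26 and 17.4). There were 0 calls among 24 unfolded protein response genes (median 0.19), 27 immediate-early mRNAs (-0.003), 49 nuclear respiratory chain genes (0.09), 24 cholesterol synthesis genes (0.09), 18 glycolysis genes (0.02) and 18 selenoproteins (0.09). The same held for 12 polyamine genes (0.11), 28 stress granule and P-body proteins (0.05), 20 replication-dependent histones (0.03), 29 G2/M genes (-0.03), 34 DNA replication genes (-0.06) and 6 microRNA hosts (-0.33). The 5 nuclear-retained RNAs had a median of -0.15. Medians between 0 and 0.14 fall below 0 once centred on the median locus, and those of the cytokine, immediate-early, tubulin and G2/M lists turn above 0 on summed isoform signal.

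**Figure D4:**
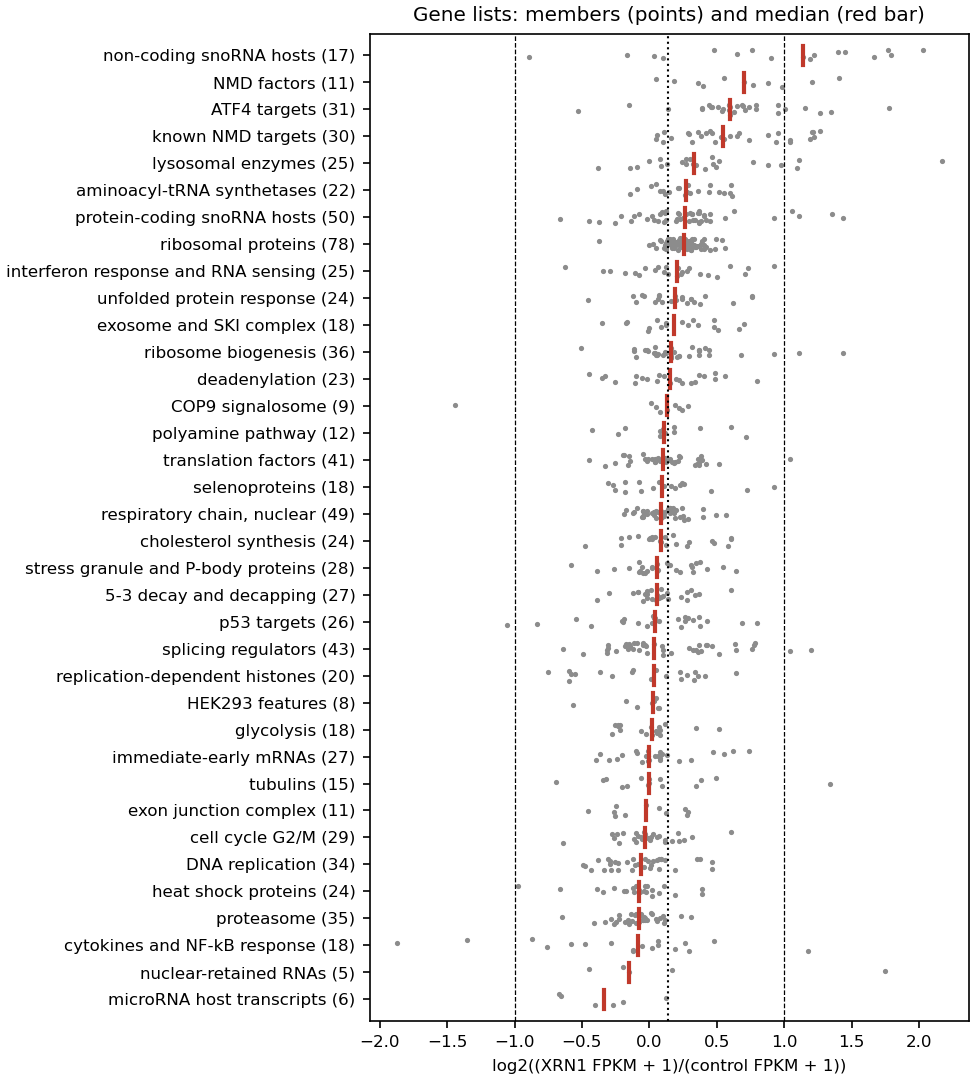
Change of each measured member (grey points) and the median (red bar) for gene lists with at least 5 measured members, as log2 of XRN1-labelled over control FPKM with 1 added. The dotted line is the median of all loci (0.14), dashed lines are 2-fold; non-coding snoRNA hosts have the highest median (1.14).

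Lower genes were few and included cytokines. IL8 (CXCL8), a neutrophil attractant, was at 11.4 FPKM in the control, 2.39 in XRN1-labelled cells, 9.04 in SMG6/XRN1 and 7.49 in UPF1/XRN1, with a read ratio of 0.213 (0.177 to 0.256). IL32 was at 52.2, 19.8, 40.9 and 30.7. CXCL1, at 3.18 and 1.29, was under 2-fold on this scale. For these genes the XRN1-labelled library was the lowest of the 4. Other genes stayed low in the co-depletions. COPS8, a subunit of the COP9 signalosome that removes NEDD8 from cullins, was at 31.1, 10.8, 14.2 and 11.7 FPKM, while the other 8 subunits lay between 0.01 and 0.28. MAEA, part of the CTLH ubiquitin ligase, was at 15.4, 6.02, 7.55 and 7.80. KLHL9, a cullin 3 adaptor, was at 15.7, 6.70, 7.24 and 6.91. COX20, an assembly factor of cytochrome c oxidase, was at 31.3, 14.5, 18.6 and 16.8.

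RBBP4, a histone-binding protein of chromatin complexes, was at 225, 112, 123 and 93.5 FPKM. SYNC, whose gene overlaps the end of RBBP4 in RefSeq, was at 42.3, 20.04, 20.46 and 15.2. The strand setting of the counting is not stated, and how far the 2 share reads was not tested. Single-exon TSPYL4 was at 8.90 and 2.77 and EPM2AIP1 at 4.80 and 1.75. DDX5, an RNA helicase, was at 298, 169, 289 and 317, under 2-fold.

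**Figure D5:**
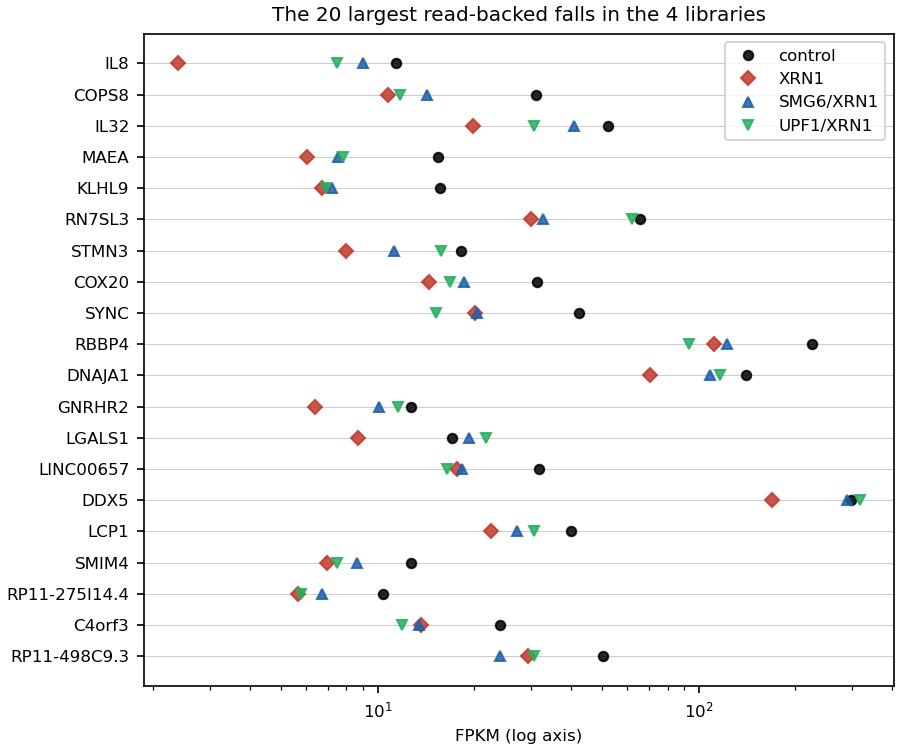
FPKM (log axis) of the 20 largest read-backed differences downward in the 4 libraries, ordered by change; circles are control, diamonds XRN1-labelled, upward triangles SMG6/XRN1 and downward triangles UPF1/XRN1. For IL8 and IL32 the XRN1-labelled library is lowest and the co-depletions lie between it and the control, while for RBBP4 and SYNC all 3 depleted libraries lie below the control.

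For 7 of the 329 called loci with a mean of 5 FPKM, a symbol and no library at 0, reads did not show the change of FPKM. KIF1B was at 101 and 16.3 FPKM but had 3145 and 2956 reads, and CAB39 at 22.3 and 121 FPKM with 3181 and 3572 reads. SOX2, ITFG1 and INPP5B were others of this kind. FPKM divides reads by the length of the isoforms they were assigned to, and the part of that assignment in these calls was not tested.

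Isoforms varied more than loci. Of 61408 isoforms above the level limit, 14923 (24.3%) passed 2-fold upward and 7737 (12.6%) downward. With at least 50 reads, 34125 remained, 6797 (19.9%) higher and 2779 (8.14%) lower. In that set, isoforms of the reference type nonsense_mediated_decay were higher in 551 of 1763 (31.3%), with a median of 0.49. Retained introns were higher in 335 of 1452 (23.1%) and protein-coding isoforms in 2402 of 18057 (13.3%), with a median of 0.13. Isoforms with a junction outside the reference were higher in 30.2% of 8584, and full matches in 16.5% of 25208. The NMD type took 2.51% of estimated reads in the control and 2.86% in XRN1-labelled cells, with exact intervals of 2.51% to 2.52% and 2.86% to 2.87%. These intervals cover counting error only, not the assembler's division of shared reads or a difference between preparations. In 2775 genes with an NMD-type isoform and at least 100 reads, its share was higher in 1679 and lower in 1088, with medians of 2.97% and 3.83%. It was higher by 10 points or more in 268 and lower by as much in 110.

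Among the largest isoform differences, some went with the locus and some did not. An isoform of CLK4 that the reference pairs with an NMD-type transcript had under 3 reads in the control and 1139 in XRN1-labelled cells, at least 399-fold higher on the signal scale, and the locus went up by about as much, from 784 to 1851 reads. An isoform of IARS, the isoleucyl-tRNA synthetase, had 1350 reads in XRN1-labelled cells and under 3 in the control, at a locus with 8616 and 11629 reads. One of PTBP2, a neuronal splicing repressor, went the other way, from 714 reads to under 3, while its locus went from 2113 to 3906 reads.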

How the data were processed

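RNA-seq libraries of poly(A)+ RNA from digitonin extracts were made with ScriptSeq v2, per the labels. The submitters' processing notes name hg19 and, with no order, Cufflinks 2.0.2, TopHat2 2.0.6, Bowtie 0.12.7 and CASAVA 1.8.2. Gene FPKM per assembled locus, and a spike-in normalised signal per isoform, are the authors' deposited values. Neither the spike-in factor nor the strand setting is stated in the labels. The authors' marks per isoform were not used.

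Loci were joined by the deposited ids. Python 3.11.15 with pandas 2.3.3, numpy 2.4.6 and scipy 1.17.1 computed changes with 1 FPKM added. Estimated reads are isoform signal over the value of 1 read, which low values show: 82.8% to 85.3% of loci with at most 20 reads came out whole within 0.01. Read ratios are scaled by that value and carry exact conditional binomial intervals at 95%. A floor of 3 reads bounds isoform folds. Scripts were tested on simulated data. Gene types come from GENCODE release 29 by transcript ID (11582 of 12164 loci), and copies were aligned with blastn 2.17.0.

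Members and lists were chosen with earlier results of these data known. One of 37 lists was added, and families were chosen, after values were seen. Named genes were the targets; the 20 largest changes each way with 1 symbol, mean 5 FPKM, 50 reads, no 0 and a 1.5-fold read ratio; 5 changes without read support (under 1.25-fold); up to 4 rises and 3 falls per list; and 8 isoforms each way. Pseudocount, level filter, read minimum, centring and summed signal were varied.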

Additional observations from a re-analysis of the deposited data

How the results depend on the processing

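With 500 loci higher and 45 lower as reported, a pseudocount of 0.1 gave 973 and 107, a pseudocount of 5 gave 119 and 17, and a mean of 5 FPKM gave 315 and 25. Summed isoform signal gave 996 and 103, and the same signal scaled to equal totals 795 and 131. A minimum of 50 reads left 24 lower. Without the level filter the counts were 520 and 50. Isoforms (14923 higher, 7737 lower) came to 29711 and 22160 without a filter and to 6797 and 2779 with 50 reads. Higher calls made up 84.8% to 95% of locus calls under every setting. INPP5B changed sign on summed signal (-0.034), as did ITFG1 (0.24), and the cause was not tested. No paired analysis was possible because each condition has 1 RNA-seq library, and for the same reason no library could be left out. Of the 45 lower loci, 18 were under 20 reads in both libraries.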

Other observations

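Of the 12164 loci, 239 had no reference symbol, and 24 of these were at least 2-fold higher and 9 lower in XRN1-labelled cells. In the whole gene table, 698 loci were listed at 0 in the control alone and 656 in the XRN1-labelled library alone, of which 10 and 8 passed the level filter.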
